A study of Macaca mulatta with 16 samples.

Results

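The genes that build and run motile cilia were measured in the lungs of fetal rhesus macaques by bulk RNA sequencing. The genes were chosen as a fixed list of 40 symbols, and 36 of them were matched through their Ensembl identifiers to rows of the count table, which holds 22515 rows. All 36 passed the filter on low counts, among 19199 genes tested. *CCDC40*, *CCDC113*, *DRC1* and *CFAP53* had no matching row and were not analysed here. Of the 36 genes, 30 encode parts of the axoneme, its dynein motors or their assembly factors, and 6 are regulators or other genes of ciliated cells.

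Motile cilia are carried by the multiciliated cells that line the conducting airways, where their beat moves mucus and fluid out of the lung. Each cilium is built on an axoneme of microtubule doublets around a central pair, with outer and inner dynein arms as motors and radial spokes and nexin links that control the beat. MCIDAS starts the multiciliated fate and FOXJ1 is the transcription factor that switches on the genes of the motile axoneme, and inherited loss of many of these genes causes primary ciliary dyskinesia.

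Each of 16 animals gave 1 library from frozen fetal lung, and every fetus came from a time-mated dam. The 4 preterm controls were delivered at 131 to 135 days of gestation and the 2 term controls at 156 to 157 days, and the labels list no treatment for either. In the LPS 16 h group, 4 animals received 1 mg of bacterial lipopolysaccharide (LPS) into the amniotic fluid at 129 to 130 days. They were delivered 16 hours later at 130 to 131 days. In the LPS 5 d group, 3 animals received the same dose at 126 to 129 days and were delivered 5 days later at 131 to 134 days. In the LPS + Beta-Ac 5 d group, 3 animals received that LPS dose and an intramuscular injection of Beta-Ac, a betamethasone acetate corticosteroid, into the dam at 0.125 mg/kg, at 126 to 127 days, and were delivered 5 days later at 131 to 132 days. The labels give no fetal sex, no sequencing batch and no record of how much conducting airway each piece of tissue held, and each comparison with preterm controls uses the same 4 preterm animals.

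Libraries held 30.6 to 48.1 M counts in the LPS 16 h group and 20.2 to 28.3 M in the other groups. Levels are given as CPM, the counts of a gene relative to the library total (in M) after TMM scaling, and differences on the log2 CPM scale. Of 6 markers of ciliated cells (*FOXJ1*, *DNAH5*, *TPPP3*, *CAPS*, *SNTN* and *CIMIP1*), 5 had a count in every animal, and *CIMIP1* had none in preterm control 113 and term control 201.

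The question asked of these genes was whether their levels differed between groups by more than they differed among animals of the same group. With all animals kept, they did not for most members. The mean log2 CPM of the 36 genes in the preterm controls was 1.34 in animal 092, 2.79 in animal 101, 0.72 in animal 113 and 4.22 in animal 209. It was 3.58 in term control 200 and 0.39 in term control 201. The highest and the lowest preterm control were therefore 3.51 log2 units apart, an 11.4-fold difference in this mean, and the 2 term controls 3.19 log2 units apart.

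The treated animals lay inside that range. The mean was 1.55, 3.24, 1.88 and 2.61 in LPS 16 h animals 026, 029, 035 and 038. It was 2.39, 3.10 and 1.55 in LPS 5 d animals 239, 240 and 242, and 0.66, 1.85 and 1.81 in LPS + Beta-Ac 5 d animals 248, 249 and 255. Apart from animal 248, which was lower than preterm control 113, every treated animal fell between preterm controls 113 and 209. The 5 group means spanned 0.91 log2 units against a standard deviation of 1.22 among animals of the same group, and 10.1% of the variance of the member mean lay between groups. In bulk tissue, fewer ciliated cells and less RNA per ciliated cell cannot be told apart.

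**Figure D1:**
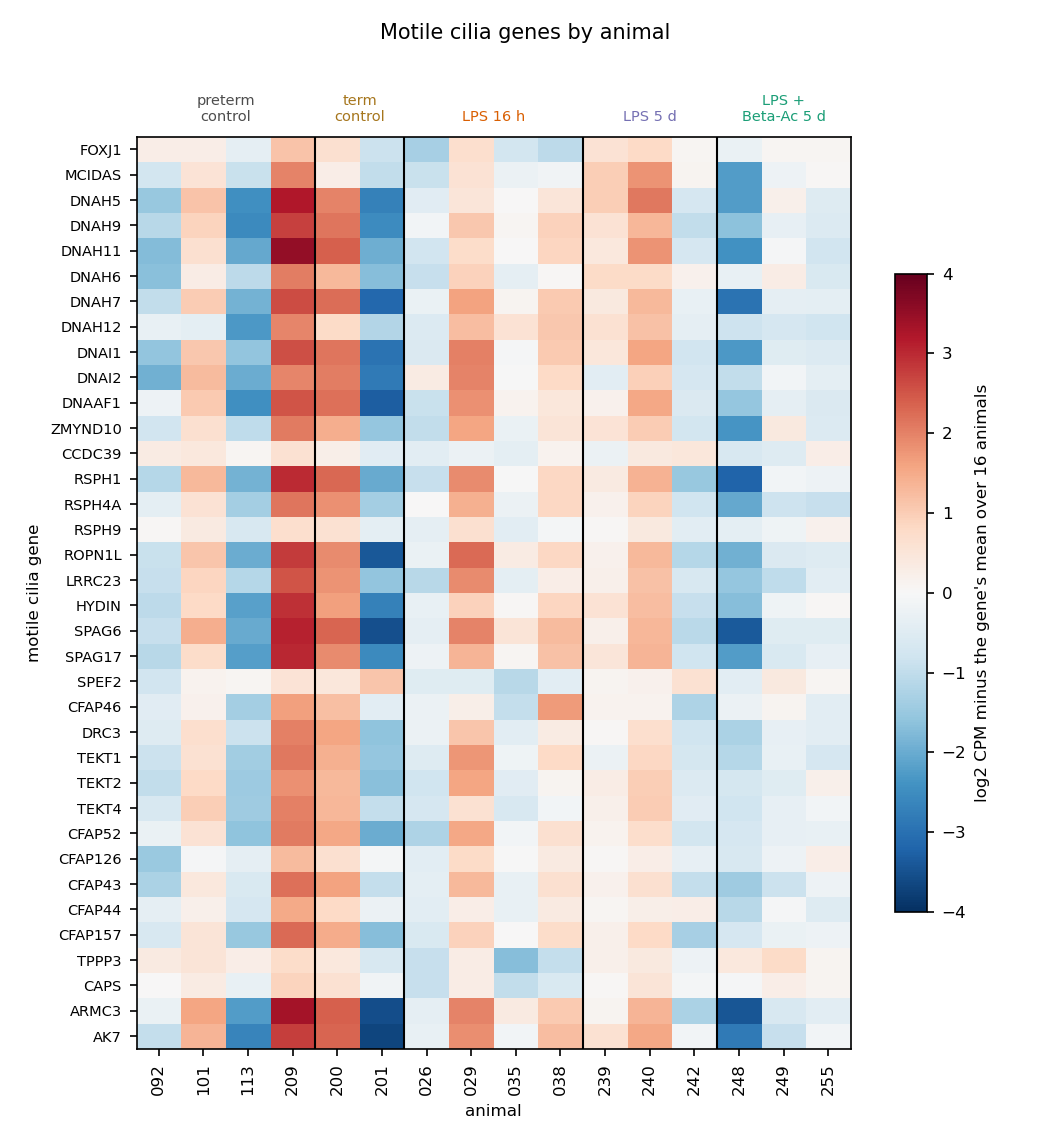
Level of each of the 36 motile cilia genes (rows) in each of 16 animals (columns, by group), as log2 CPM minus the gene's mean over all animals. Most genes share the colour of their column: preterm control 209 is the highest preterm animal for 36 of 36 genes, and *SPEF2*, *CCDC39* and *TPPP3* are the rows that follow the columns least.

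The same comparison gene by gene gave the same picture. The pooled standard deviation of log2 CPM within groups had a median of 1.24 over the 36 genes, against 0.28 over all genes tested. The range of the 5 group means had a median of 1.25 over the members and 0.76 over all genes. A median of 13.7% of a member's variance lay between groups, against 55.9% for all genes. In 33 of 36 members (91.7%) the range among the 4 preterm controls alone exceeded the range of the 5 group means, and this held for 33.9% of all genes. The 3 members in which it did not were *CCDC39*, *SPEF2* and *TPPP3*. These counts leaned on the highest animals: without preterm control 209 and term control 200, the median share of variance between groups was 46.7% and the preterm range was the larger in 15 members. Without the lowest animals of these groups, 113 and 201, the share was 37.9%.

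**Figure D2:**
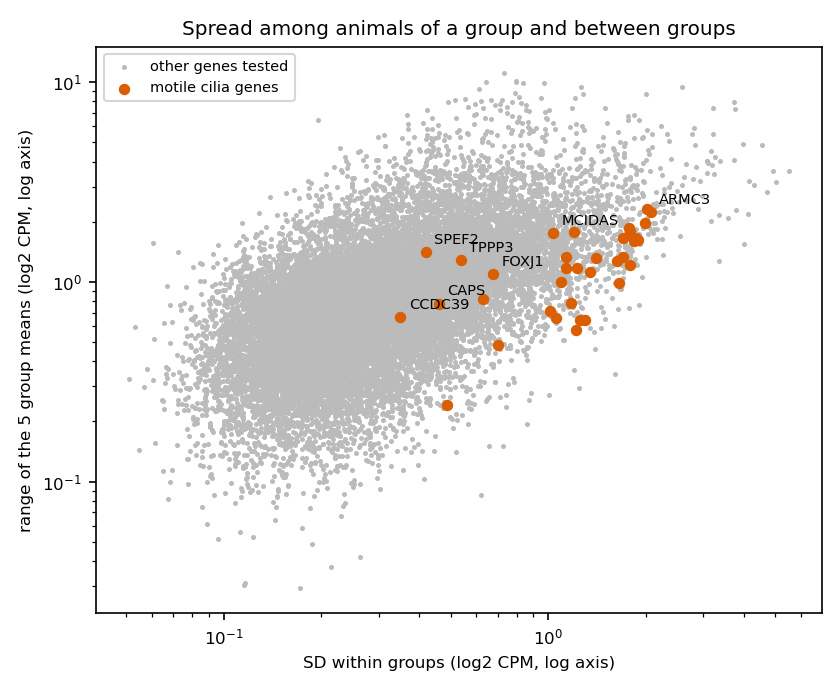
Pooled standard deviation within groups (horizontal, log axis) against the range of the 5 group means (vertical, log axis) in log2 CPM, 1 point per gene, with the 36 motile cilia genes in orange and the other genes tested in grey. Most members lie far to the right, at a median within-group standard deviation of 1.24 against 0.28 for all genes.

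Animals 209 and 113 stood at the ends of the preterm group for almost the whole list. Animal 209 was the highest preterm control in 36 of 36 members and the highest of all 16 animals in 32. Animal 113 was the lowest preterm control in 32 members and animal 092 in the other 4. The median member was 11.9-fold higher in animal 209 than in animal 113, while the median of all genes differed by -0.06 log2 units between them. Among the term controls, animal 200 was higher than animal 201 in 35 of 36 members, by 9.14-fold at the median, and *SPEF2* was the exception. The LPS groups had their own highest and lowest animals, with 029 above 026 in 35 members (3.07-fold at the median) and 240 above 242 in 33 (3.08-fold at the median).

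The outer dynein arms, the motors that set the beat frequency, showed the spread most clearly. *DNAH5*, which encodes an outer arm heavy chain, was at 1.83, 11.9, 0.92 and 50.4 CPM in preterm controls 092, 101, 113 and 209 and at 21.3 and 0.78 CPM in term controls 200 and 201. It was at 3.87, 7.55, 5.41 and 7.50 CPM in the LPS 16 h animals 026, 029, 035 and 038, at 10.7, 23.5 and 3.37 CPM in the LPS 5 d animals 239, 240 and 242, and at 1.09, 6.15 and 3.74 CPM in the LPS + Beta-Ac 5 d animals 248, 249 and 255. The preterm controls thus reached both above and below all 10 treated animals. *DNAH9* and *DNAH11*, the other heavy chains of the outer arm, had the same high and low animals, with preterm values from 1.38 to 56.9 CPM and from 1.10 to 55.8 CPM. *DNAI2*, an intermediate chain that anchors these motors, was at 0.305, 3.33, 0.284 and 5.42 CPM in the preterm controls and at 5.73 and 0.13 CPM in term controls 200 and 201. In the LPS 16 h animals it was at 1.71, 5.50, 1.33 and 2.38 CPM, in the LPS 5 d animals at 0.98, 2.65 and 0.81 CPM and in the LPS + Beta-Ac 5 d animals at 0.64, 1.23 and 1.00 CPM. No group stood clear of the controls. Its partner *DNAI1* ranged from 0.26 CPM in term control 201 to 15.1 CPM in preterm control 209.

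Inner arm dyneins, which shape the bend of the cilium, varied in the same animals. *DNAH7* was at 1.26, 5.18, 0.64 and 15.9 CPM in the preterm controls and at 12.1 and 0.23 CPM in the term controls. It was at 2.10, 7.98, 2.73 and 5.29 CPM at 16 h, at 3.37, 6.33 and 2.04 CPM at 5 d after LPS, and at 0.26, 1.95 and 1.93 CPM after LPS + Beta-Ac. The 3 LPS + Beta-Ac 5 d animals lay below the 3 LPS 5 d animals without overlap, and both groups lay inside the preterm range apart from animal 248. *DNAH6* went from 1.07 to 15.3 CPM over the 16 animals, and *DNAH12* had few counts, from 1 in preterm control 113 to 54 in preterm control 209.

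Dynein arms are put together in the cytoplasm by assembly factors before they enter the cilium. The assembly factor *ZMYND10* was at 2.83, 7.63, 2.38 and 20.7 CPM in the preterm controls and at 13.6 and 1.62 CPM in the term controls. It was at 2.42, 14.6, 4.08 and 7.07 CPM at 16 h, at 7.18, 9.98 and 2.94 CPM at 5 d after LPS, and at 0.90, 6.41 and 3.35 CPM after LPS + Beta-Ac. All groups overlapped the preterm controls. *DNAAF1*, a second assembly factor, ranged from 0.13 CPM in animal 201 to 11.1 CPM in animal 209.

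The structures that control the beat followed the motors. Radial spokes carry signals from the central pair to the dynein arms, and the spoke head gene *RSPH1* was at 1.18, 6.70, 0.67 and 21.8 CPM in the preterm controls and at 13.5 and 0.61 CPM in the term controls. It was at 1.39, 10.2, 2.63 and 4.80 CPM at 16 h, at 3.45, 7.14 and 0.90 CPM at 5 d after LPS, and at 0.23, 2.46 and 2.31 CPM after LPS + Beta-Ac. Again the preterm animals alone covered nearly the whole range. The spoke gene *RSPH9* was steadier, from 7.41 to 18.5 CPM over all 16 animals, with a within-group standard deviation of 0.49. *RSPH4A*, *ROPN1L* and *LRRC23*, also of the spokes, had within-group standard deviations of 1.20, 1.79 and 1.41.

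*SPAG6*, a protein of the central pair, had the second largest within-group standard deviation of the list, 2.01. It was at 1.13, 6.15, 0.50 and 19.2 CPM in the preterm controls and at 11.4 and 0.13 CPM in the term controls. It was at 1.71, 8.96, 3.19 and 5.44 CPM at 16 h, at 2.54, 5.68 and 1.00 CPM at 5 d after LPS, and at 0.15, 1.56 and 1.54 CPM after LPS + Beta-Ac. The control groups spanned the treated ones. The central pair genes *HYDIN* and *SPAG17* had values of 1.33 to 69.3 CPM and 0.26 to 15.6 CPM over the 16 animals. *CFAP46* was the 1 member with its highest level in an LPS 16 h animal, 3.78 CPM in animal 038.

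*DRC3*, a subunit of the nexin-dynein regulatory complex that links neighbouring doublets, was at 4.27, 9.84, 3.41 and 25.5 CPM in the preterm controls and at 18.6 and 1.97 CPM in the term controls. It was at 5.29, 13.5, 4.64 and 7.79 CPM at 16 h, at 6.35, 9.94 and 3.56 CPM at 5 d after LPS, and at 2.52, 4.89 and 4.62 CPM after LPS + Beta-Ac. All groups overlapped. *TEKT2*, a tektin filament inside the doublets, was at 2.05, 7.21, 1.45 and 14.7 CPM in the preterm controls and at 10.4 and 1.26 CPM in the term controls. In the treated groups it was at 2.38, 12.6, 3.01 and 4.48 CPM, at 5.15, 8.21 and 2.80 CPM, and at 2.52, 2.97 and 4.74 CPM, in the same order of animals. Each treated value of *TEKT2* lay inside the preterm range. *CFAP157*, of the cilia and flagella associated proteins, was at 5.84, 12.9, 3.12 and 44.1 CPM in the preterm controls and at 25.6 and 2.71 CPM in the term controls. It was at 5.86, 17.4, 9.09 and 15.3 CPM at 16 h, at 10.4, 15.7 and 3.61 CPM at 5 d after LPS, and at 5.61, 7.57 and 7.90 CPM after LPS + Beta-Ac, so that all 10 treated animals lay inside the preterm range.

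*ARMC3*, a gene of ciliated cells whose product holds armadillo repeats, had the largest within-group standard deviation, 2.07. It was at 1.87, 6.98, 0.43 and 23.5 CPM in the preterm controls and at 12.2 and 0.13 CPM in the term controls. It was at 1.74, 9.20, 2.91 and 4.80 CPM at 16 h, at 2.47, 5.91 and 0.90 CPM at 5 d after LPS, and at 0.15, 1.45 and 1.70 CPM after LPS + Beta-Ac. *AK7*, an adenylate kinase of the axoneme, had the standard deviation next below that of *SPAG6*, 1.99, and ranged from 0.0323 CPM in animal 201 to 8.77 CPM in animal 209. In animal 201, 3 counts make 0.097 CPM, so *AK7* was below that level there. The 0.13 CPM of *ARMC3* and of *SPAG6* in that animal lay close to it. The standard deviations of these genes thus rest in part on very few counts.

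A few members kept a level that hardly followed the others. *CCDC39*, part of the molecular ruler that spaces the dyneins, was at 13.1, 13.8, 11.0 and 15.9 CPM in the preterm controls and at 12.1 and 7.50 CPM in the term controls. It was at 7.68, 8.88, 7.90 and 11.3 CPM at 16 h, at 8.74, 13.7 and 14.2 CPM at 5 d after LPS, and at 6.59, 7.20 and 12.4 CPM after LPS + Beta-Ac. Its within-group standard deviation was 0.35 and it stayed within a 2.42-fold range over all animals. *SPEF2*, a central pair protein, was at 12.4, 23.3, 22.3 and 30.5 CPM in the preterm controls, and term control 201, the animal lowest in 18 members, had its highest level, 45.3 CPM. In *SPEF2* 61.1% of the variance lay between groups, the most of any member.

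Members rose and fell together among animals of a group. After the group means were subtracted, the log2 CPM of a member correlated with the mean of the other members with a median Pearson's r of 0.97 and a median Spearman's rho of 0.95 over the 16 animals, and r was 0.95 at the median without the 2 animals farthest out, preterm control 209 and term control 201. Values of r above 0.9 were found for 26 of 36 members and for 1.06% of all genes tested. The lowest were 0.19 for *SPEF2*, 0.58 for *CCDC39* and 0.63 for *TPPP3*. These points share their libraries and the scaling, and they are given as a description.

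Other genes of the same structures varied with the members. Of 72 further motile cilia genes tested, 43 had an r above 0.9 with the member mean, at a median r of 0.94. Of the 11 genes tested from the multiciliogenesis programme, which amplifies the centrioles that become basal bodies, the median was 0.84, with 0.95 each for *CCNO* and *CDC20B*, which neighbour *MCIDAS* in the RefSeq annotation. The 30 genes of intraflagellar transport and the BBSome, which also serve the single primary cilium of most cells, had a median r of 0.11. That is a median over single genes, and the mean of these 30 genes had an r of 0.42 with the member mean. Their median within-group standard deviation was 0.23, and 47.1% of their variance lay between groups at the median. Outside these lists, the 5 genes closest to the member mean were *FAM81B* (r = 0.997), *GAS2L2* (0.992), *SAXO3* (0.991), *ANKRD66* (0.989) and *CCDC146* (0.989).

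Taken as list means, markers of other airway cells moved with the members, and this is given as a measured fact. The mean of 5 airway secretory genes (*SCGB1A1*, *SCGB3A1*, *SCGB3A2*, *MUC5B* and *BPIFB1*) correlated with the member mean with r = 0.97 after group means were subtracted. Its summed level ran from 42.2 to 545 CPM in the preterm controls, from 19.3 to 283 in the term controls, from 75.0 to 184 at 16 h, from 26.6 to 332 at 5 d and from 33.7 to 126 after LPS + Beta-Ac. Of the 10 secretory markers looked for, 2 (*MUC5AC* and *MUC16*) had no matching row and 3 (*BPIFA1*, *TFF3* and *LYPD2*) were under the filter. The value for the list mean was 0.91 for 4 airway basal genes, 0.81 for 6 neuroendocrine genes and 0.80 for 10 cartilage genes. Single genes differed within these lists. They ran from -0.12 (*NGFR*) to 0.96 (*KRT5*) for basal and from 0.16 (*CALCA*) to 0.85 (*CHGA*) for neuroendocrine genes. Cartilage genes ran from 0.14 (*COL9A3*) to 0.87 (*HAPLN1*). For the other list means it was -0.01 for 8 alveolar type 2 genes, 0.48 for 7 alveolar type 1 genes and 0.47 for 7 smooth muscle genes. It was 0.53 for 7 pan-epithelial genes and 0.20 for 10 myeloid genes. The part of airway content in the spread of the members was not tested.

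**Figure D3:**
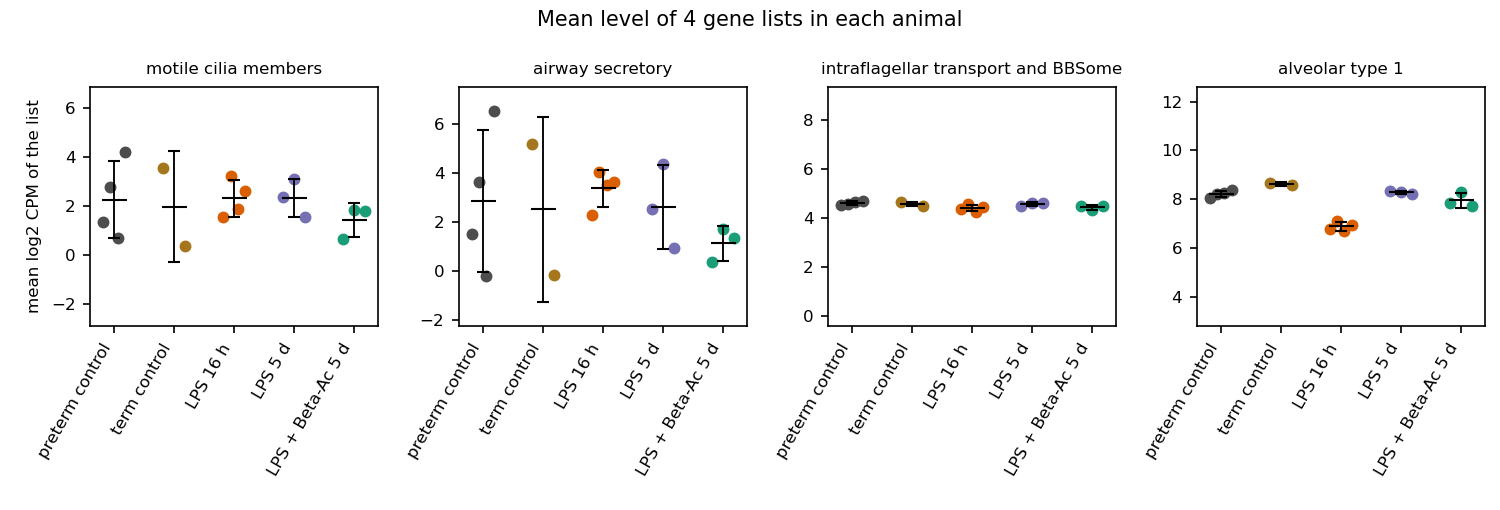
Mean log2 CPM of 4 gene lists in each animal (points), with the mean and standard deviation of each group (bars), on vertical axes of equal length. The motile cilia and airway secretory lists spread widely within groups, the intraflagellar transport list spans little, and the alveolar type 1 list is low in the 4 LPS 16 h animals, at 6.72 to 7.13 against 8.05 to 8.37 in the preterm controls.

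At 16 hours after LPS, 1 of 36 members passed the test (adjusted p under 0.05 and at least 2-fold by limma), against 14.4% of all genes tested (6.07% lower), and 5 had an unadjusted p under 0.05, against 46.8% of all genes. The member that passed was *TPPP3*, which encodes a protein that promotes tubulin polymerization. It was among the members that followed the others least, with an r of 0.63 after group means were subtracted. *TPPP3* was at 114, 128, 107 and 147 CPM in preterm controls 092, 101, 113 and 209 and at 119 and 56.8 CPM in term controls 200 and 201. In the LPS 16 h animals 026, 029, 035 and 038 it was at 47.6, 110, 27.3 and 45.8 CPM, so that 3 of the 4 animals lay well below every preterm control and animal 029 lay among them. It fell by 1.28 on the log2 scale (SE 0.34, adjusted p = 0.00875). Without LPS 16 h animal 035 the change was -0.98 (adjusted p = 0.0271), under the 2-fold minimum. At 5 d after LPS *TPPP3* was at 102, 118 and 77.7 CPM, and after LPS + Beta-Ac at 119, 151 and 96.7 CPM, and both groups overlapped the preterm controls.

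*CAPS*, a calcium-binding protein of ciliated cells, and *FOXJ1* had the same 3 low animals at 16 h. *CAPS* was at 48.5, 60.8, 39.5 and 88.7 CPM in the preterm controls, at 73.2 and 43.3 CPM in the term controls and at 25.5, 59.97, 24.5 and 31.8 CPM in the LPS 16 h animals. It was at 50.2, 68.8 and 45.5 CPM at 5 d after LPS and at 46.6, 58.4 and 52.5 CPM after LPS + Beta-Ac. Animals 026, 035 and 038 lay below every other animal of the study and 029 did not, and the change at 16 h was -0.78 (SE 0.29, adjusted p = 0.0481), under the 2-fold minimum. *FOXJ1* was at 35.0, 35.6, 22.9 and 65.3 CPM in the preterm controls and at 46.1 and 16.0 CPM in the term controls. It was at 11.8, 47.0, 17.4 and 14.0 CPM at 16 h, at 43.4, 50.7 and 31.1 CPM at 5 d after LPS, and at 24.6, 31.2 and 30.7 CPM after LPS + Beta-Ac. The 3 low LPS 16 h animals were below every preterm control, animal 029 was not, and the change of -0.94 (SE 0.43, 95% interval -1.87 to -0.02) did not pass (adjusted p = 0.100). Both results depended on single animals. Without animal 029, *FOXJ1* fell by 1.35 (adjusted p = 0.00985) and *CAPS* by 1.04 (adjusted p = 0.00534), and both passed by limma. Without preterm control 209 the changes were smaller, -0.67 for *FOXJ1* and -0.56 for *CAPS*. Over all runs with 1 animal left out, the limma adjusted p reached 0.249 for *FOXJ1* and 0.141 for *CAPS*.

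*MCIDAS*, which acts before *FOXJ1*, was close to the limit of detection. Its counts were 3, 9, 3 and 34 in the preterm controls, 9 and 3 in the term controls, 3, 16, 9 and 8 at 16 h, 16, 28 and 6 at 5 d after LPS, and 0, 6 and 7 after LPS + Beta-Ac. The count of 0 in animal 248 allows a level of up to 0.113 CPM, for counting error only. No change of *MCIDAS* passed in the 6 comparisons of group means.

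Over the whole list the changes at 16 h went both ways. Of the 36 members, 24 had a higher and 12 a lower mean than in the preterm controls, with a median log2 fold change of 0.12 against -0.09 over all genes. That median was -0.44 without preterm control 113 and 0.81 without preterm control 209. The 30 axonemal genes had a median standard error of 0.82 log2 units, against 0.20 over all genes tested, and their intervals were correspondingly wide: for *DNAH5* the change was 0.03 with a 95% interval of -2.61 to 2.67. *CCDC39* (-0.59, adjusted p = 0.0580) and *SPEF2* (-0.63, adjusted p = 0.0742), with their smaller errors, did not pass. No member was without overlap between the LPS 16 h and the preterm animals, against 33.6% of all genes.

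Because most axonemal genes moved together from animal to animal, a fit was added after these values were seen, with the mean log2 CPM of the axonemal members as a covariate (an axonemal member was left out of its own covariate). It compares animals at an equal axonemal level. In the treated groups that level was itself measured after treatment, in genes that FOXJ1 switches on. The fit therefore takes out any change that *FOXJ1* shares with them. Runs with 1 animal left out were made without the covariate only, so the dependence of these values on single animals is not known. The median standard error of the members at 16 h fell from 0.80 to 0.26. At 16 h, 2 of 36 members then passed, against 14.6% of all genes. *FOXJ1* fell by 1.01 (SE 0.25, adjusted p = 0.00486), just past the 2-fold minimum, and *TPPP3* by 1.32 (SE 0.27, adjusted p = 0.00168). *CAPS* (-0.83, adjusted p = 0.000733), *CCDC39* (-0.62, adjusted p = 0.0266) and *TEKT4* (-0.58, adjusted p = 0.0321) were past the p threshold and under the 2-fold minimum. That made 5 of 36 members past the p threshold at any fold. Of all genes, 38.3% were past it without the covariate, and the share with the covariate is not given. Among the animals with low axonemal means, preterm controls 092 and 113, at 1.09 and 0.50, had *FOXJ1* at 5.13 and 4.52 log2 CPM, while LPS 16 h animals 026 and 035, at 1.46 and 1.80, had it at 3.56 and 4.13. Term control 201, with the lowest axonemal mean of all animals, 0.23, had it at 4.01, between these 2 LPS 16 h animals. Animal 038, with an axonemal mean of 2.58 beside the 2.63 of preterm control 101, had *FOXJ1* at 3.82 against 5.16 log2 CPM. Animal 029, with the highest axonemal mean of the 4, had it at 5.56.

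**Figure D4:**
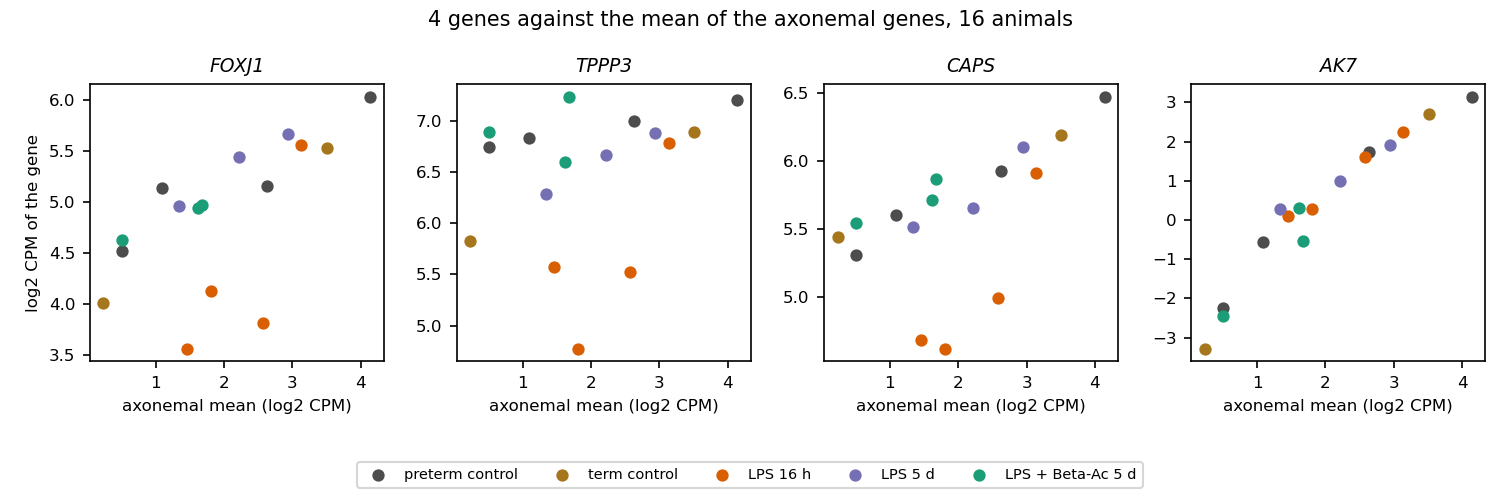
Log2 CPM of *FOXJ1*, *TPPP3*, *CAPS* and *AK7* (vertical) against the mean log2 CPM of the axonemal members (horizontal), 1 point per animal, coloured by group. In *FOXJ1*, *TPPP3* and *CAPS* 3 of the 4 LPS 16 h animals lie below the other animals of similar axonemal level, while term control 201, at the far left, has *FOXJ1* at 4.01, and in *AK7* all groups lie along 1 line.

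**Figure D5:**
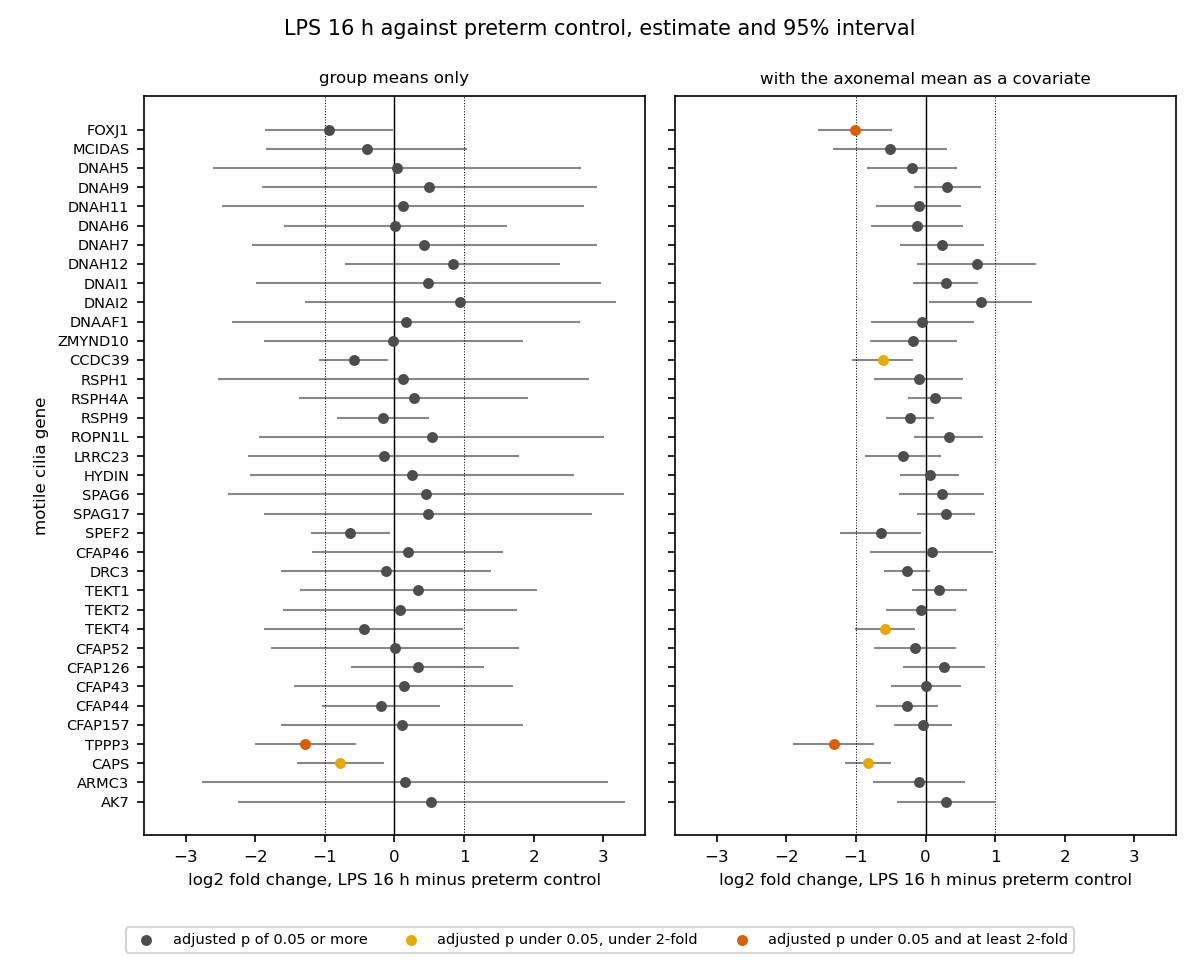
Log2 fold change of each member at 16 h after LPS against preterm controls with its 95% interval, from group means only (left) and with the axonemal mean as a covariate (right). Dotted lines mark 2-fold, *TPPP3* passes in both panels, *FOXJ1* passes on the right only, and the intervals of most other members include 0 in both.

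Markers of other cells also differed at 16 h. Of the alveolar type 1 markers, 5 of 7 (*HOPX*, *CLIC5*, *RTKN2*, *AQP5* and *CAV1*) passed in the lower direction, against 6.07% of all genes. The summed level of the 7 was 1445 to 1710 CPM at 16 h and 3929 to 4521 CPM in the preterm controls. Animals 029 and 038 had almost the same sum, 1710 and 1707 CPM, and all 4 LPS 16 h animals lay below every preterm control. Of the 10 myeloid genes, 8 passed in the higher direction and none in the lower. Their summed level was 1866 to 2411 CPM at 16 h and 107 to 237 CPM in the preterm controls. Of the 8 alveolar type 2 genes, 5 passed in the higher direction and none in the lower. Of the 4 basal cell genes tested, 2 (*NGFR* and *DLK2*) passed in the higher direction, and none of the 5 secretory genes passed. Over all genes, 14.4% passed in either direction. With the axonemal mean as a covariate, the secretory gene *MUC5B* passed as well, higher at 16 h than in the preterm controls and lower at 5 d than at 16 h. The LPS 16 h libraries were also the deepest. The part of these cells and of depth in the lower *TPPP3*, *CAPS* and *FOXJ1* was not tested.

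At 5 d after LPS, 0 of 36 members passed against the preterm controls, against 4.83% of all genes, and 0 had an unadjusted p under 0.05, against 28% of all genes. The median log2 fold change was 0.04, from -0.54 for *ARMC3* to 0.74 for *DNAH12*. That median was -0.46 without preterm control 113 and 0.64 without preterm control 209. *FOXJ1* was 0.15 higher (SE 0.47, 95% interval -0.85 to 1.15). From 16 h to 5 d after LPS, in different animals, 0 of 36 passed against 14.6% of all genes, with 4 at an unadjusted p under 0.05 (*FOXJ1*, *SPEF2*, *TPPP3* and *CAPS*), against 44.1% of all genes. *FOXJ1* was 1.09 higher at 5 d (SE 0.47, adjusted p = 0.0855) and *TPPP3* 0.95 (SE 0.37, adjusted p = 0.0604). Without LPS 16 h animal 029 both passed by limma, at 1.52 (adjusted p = 0.00729) and 1.32 (adjusted p = 0.00212). Without LPS 16 h animal 026 the change of *FOXJ1* was 0.86, and without LPS 16 h animal 035 that of *TPPP3* was 0.65. Over all runs with 1 animal left out, the adjusted p reached 0.226 for *FOXJ1* and 0.181 for *TPPP3*. *SPEF2* was at 15.1, 14.8, 9.60 and 15.6 CPM at 16 h and at 22.5, 23.4 and 32.0 CPM at 5 d, without overlap. Its change of 0.92 (SE 0.29, limma adjusted p = 0.0225) was under the 2-fold minimum. Without LPS 5 d animal 239 it passed at 1.01 (adjusted p = 0.0365), and without LPS 16 h animal 035 it was 0.75. Its adjusted p reached 0.0994 with 1 animal left out. *SPEF2* was the 1 member without overlap here, against 40% of all genes.

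With the axonemal mean as a covariate, 2 of 36 members passed between 16 h and 5 d, against 15% of all genes. *FOXJ1* was 1.12 higher at 5 d (SE 0.27, adjusted p = 0.00425), and *MCIDAS* 1.18 higher (SE 0.41, adjusted p = 0.0350), on 3 to 28 counts an animal. *SPEF2* (0.92, adjusted p = 0.0232), *TPPP3* (0.97, adjusted p = 0.0193) and *CAPS* (0.73, adjusted p = 0.00341) were past the p threshold and under the 2-fold minimum. That made 5 of 36 members past the p threshold at any fold. Without the covariate 6718 of all 19199 genes were past it. In the other 4 comparisons 0 members passed with the covariate by limma. Against the preterm controls, 5.04% of all genes passed at 5 d after LPS, 7.35% after LPS + Beta-Ac and 2.65% at term. For LPS + Beta-Ac 5 d against LPS 5 d it was 0.0417%. At the looser threshold of an unadjusted p under 0.05 by limma there were, in the same order, 1, 3, 3 and 3 members. The share of all genes at that looser threshold is not given with the covariate. Without the covariate it was 28%, 30%, 18.9% and 4.82%.

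After LPS + Beta-Ac, 35 of 36 members had a lower mean than in the preterm controls, and 16 were at least 2-fold lower, against 4.53% of all genes. None of these changes passed the test: 0 of 36 did, against 6.5% of all genes, with 1 at an unadjusted p under 0.05 (*CCDC39*) against 30% of all genes. The median log2 fold change was -0.83, against -0.01 over all genes. Without preterm control 209 it was -0.13, and without preterm control 113 it was -1.36. *ARMC3* had the lowest value, -2.08 with a 95% interval of -5.24 to 1.07. Against the LPS 5 d animals, 34 of 36 members were lower and 17 at least 2-fold lower (1.93% of all genes), at a median of -0.84. Of these, 0 passed against 0.104% of all genes, and 1 had an unadjusted p under 0.05 (*MCIDAS*) against 4.82% of all genes. In 5 members (*MCIDAS*, *DNAH7*, *DNAH12*, *RSPH4A* and *CFAP44*) the groups of 3 did not overlap on log2 CPM, against 11.4% of all genes. *MCIDAS* was close to the limit of detection, and its raw counts did overlap. Its lowest LPS 5 d value was 0.285 CPM and its highest LPS + Beta-Ac 5 d value 0.270 CPM. Members that vary together are not independent of each other, so a shared direction over the list is no count of separate observations. The members also had larger errors. Their median standard error was 0.86 log2 units against the preterm controls, where it was 0.21 over all genes. Against the LPS 5 d animals it was 0.92, where it was 0.23 over all genes. The shares at least 2-fold lower, which carry no test, are therefore not like for like. With the axonemal mean as a covariate, which removes any shift that the axonemal members share, *RSPH4A* had a change of -0.74 against the preterm controls (adjusted p = 0.0175), under the 2-fold minimum. It was the 1 member of 36 past the p threshold at any fold in that comparison. Without the covariate 3317 of all 19199 genes were past it.

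In the term controls, 0 of 36 members passed against the preterm controls, against 2.07% of all genes, with 1 at an unadjusted p under 0.05 (*SPEF2*, 0.77 higher, adjusted p = 0.212) against 18.9% of all genes. The median log2 fold change of -0.25 rests on 2 animals that lay 3.19 log2 units apart: it was -1.83 without term control 200 and 1.36 without term control 201.

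Among the other genes of the pathway, *SPAG1*, a cytoplasmic dynein assembly factor, rose at 16 h. It was at 23.3 ± 4.78 CPM (SD, n = 4) in the LPS 16 h animals and at 8.29 ± 3.75 CPM (SD, n = 4) in the preterm controls without overlap, a change of 1.56 (SE 0.27, adjusted p = 0.000322), and it was 1.83 lower at 5 d than at 16 h (-1.83, adjusted p = 0.000178). *CFAP70*, of the outer dynein arm, fell by 1.14 at 16 h (adjusted p = 0.0392), from 12.04 ± 6.61 to 5.21 ± 2.21 CPM (SD, n = 4 each) with overlap, and was 1.497 higher at 5 d than at 16 h (adjusted p = 0.0158). These were the 2 of 72 further motile cilia genes that passed in each of these comparisons, against 14.4% and 14.6% of all genes. In the other 4 comparisons 0 of 72 passed by limma. An unadjusted p under 0.05 was found there for 2 (LPS 5 d against preterm controls, 28% of all genes), 6 (LPS + Beta-Ac 5 d against preterm controls, 30%), 0 (term against preterm controls, 18.9%) and 0 (LPS + Beta-Ac 5 d against LPS 5 d, 4.82%). With the axonemal mean as a covariate, *SPAG8* also passed in the lower direction at 16 h and *CFAP54* after LPS + Beta-Ac, both against the preterm controls. Without preterm control 209 the change of *CFAP70* at 16 h was -0.81 (adjusted p = 0.118), and without LPS 5 d animal 240 that from 16 h to 5 d was 1.18 (adjusted p = 0.0859). *RFX3*, a transcription factor that acts with FOXJ1 on cilia genes, was at 5.05 ± 0.39 CPM (SD, n = 3) at 5 d after LPS and at 2.42 ± 1.30 CPM (SD, n = 4) in the preterm controls without overlap, a change of 1.19 (SE 0.32, adjusted p = 0.0195). It was the 1 of 11 programme genes that passed in that comparison, against 4.83% of all genes. None of the 11 passed in the other 5 comparisons, against 0.104% to 14.6% of all genes. With the covariate, *CDC20B* also passed, higher at 5 d after LPS than in the preterm controls and than at 16 h, and *HES6* passed as higher after LPS + Beta-Ac than in the preterm controls. Without preterm control 113 the change of *RFX3* was 0.95 (adjusted p = 0.0578). No intraflagellar transport or BBSome gene passed in any of the 6 comparisons, against 0.104% to 14.6% of all genes. At 16 h, 8 of 30 had a limma adjusted p under 0.05 with changes under 2-fold, against 38.3% of all genes at any fold. Examples were *IFT80* (-0.90, adjusted p = 2.92e-05) and *IFT57* (0.91, adjusted p = 0.00187).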

How the data were processed

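Left lung was snap frozen, and poly(A) RNA was sequenced as paired-end 75 bp reads in 16 animals. Per the study's methods, the authors quantified reads with kallisto on Mmul_10 and summarised them per gene with tximport for DESeq2; the sources used here do not name tool versions. The table the authors deposited holds whole-number counts per gene, not normalized. How reads shared by paralogous genes were divided is not given.

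Of 22515 genes, 17256 had a symbol, and 19199 passed the filter: a total of 15 counts or more, with 0.371 CPM reached by 2 or more animals. Counts were scaled by TMM and taken as log2 CPM with a prior count of 2. All 5 groups were fitted together with limma 3.58.1 (trend, robust with statmod 1.5.0) in R 4.3.3, with Benjamini-Hochberg adjustment over all genes tested. A gene passed at an adjusted p under 0.05 and at least 2-fold, two-sided. The fit was run on simulated counts in which 200 genes changed by 2 log2 units and every gene had a dispersion of 0.05. Of the changed genes, 93% to 98% passed. The simulation did not use the spread of the members, so it does not show how well their changes are found. Any 2 animals of a group differed beyond counting error (chi-square per degree of freedom 32.5 to 173).

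The members, the 12 other lists and the genes named were chosen with earlier results of these data known. Values per animal were given for both regulators, the member nearest the median of each role group, members that passed and the 2 with the largest within-group standard deviation; other members were named after their values were seen. Correlations used log2 CPM minus group means. Alternatives covered scaling, prior count, filter, samples, weights and each animal left out.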

Additional observations from a re-analysis of the deposited data

How the results depend on the processing

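In every alternative run, 0 members passed in the comparisons of LPS 5 d, LPS + Beta-Ac 5 d and term controls with preterm controls and of LPS + Beta-Ac 5 d with LPS 5 d. At 16 h against preterm controls, 1 member passed, and 2 did with no minimum fold, with total counts only, with array weights, without animals 209 and 200, without animals 113 and 201, and with the axonemal mean as a covariate. Leaving out 1 animal at a time gave 0 (without LPS 16 h animal 035) to 3 (without 029). From 16 h to 5 d, 0 passed, against 1 with no minimum fold, 3 with total counts only (*FOXJ1*, *TPPP3* and *SPEF2*), 2 with array weights, 1 without animals 209 and 200 and 2 with the covariate, and 0 to 2 with 1 animal left out. Without animals 209 and 200, the median share of variance between groups was 46.7% (13.7% with all animals) and the members whose preterm range exceeded the range of group means numbered 15 (33 with all). Without animals 113 and 201 the share was 37.9%, and with 1 animal left out it was 7.26% to 30.9%. The median log2 fold change of the members in term controls was -1.83 to 1.36 with 1 animal left out. The covariate and the fit without animals 113 and 201 were chosen after seeing the data. The cause of these differences was not tested, apart from the fewer animals in a fit.

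*TPPP3* at 16 h passed in every alternative except without animal 035, at -1.63 to -0.98 with 1 animal left out. The call of *CFAP70* at 16 h was lost in 8 alternatives, that of *RFX3* at 5 d in 6 and that of *SPAG1* at 16 h in 0. No paired analysis was possible because the groups share no replicate numbers. Groups of 2 to 4 animals with a within-group standard deviation near 1.24 leave wide intervals for most axonemal genes: that of *DNAH5* at 16 h ran from -2.61 to 2.67 on the log2 scale, and the -2.08 of *ARMC3* after LPS + Beta-Ac did not pass (limma, adjusted p = 0.375).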
